A study of Homo sapiens with 9 samples.

Results

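The genes described here encode 7 RNA-binding or RNA-modifying proteins that act on mRNAs at the mitochondrial surface or on small RNA precursors: AKAP1, CLUH, SYNJ2BP, LARP4, ZC3H7B, TUT4 and TUT7. They were chosen by name and function, not by their values, and include AKAP1, ZC3H7B and TUT4, proteins to which the study gave attention in its work on the surroundings of mutant p53. All 7 were found in the table, of 78986 genes in all, and all 7 had enough counts to be tested in every comparison.

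RNA-seq was performed in triplicate on HEK293T cells stably expressing WT p53, p53 with the G245S substitution or p53 with the R273H substitution, with the WT p53 line as the control, 9 libraries in all. HEK293T is a human embryonic kidney line that carries the SV40 large T antigen, a p53-binding viral protein, and p53 of its own, so that every group shared both. The p53 genes were delivered by lentivirus and all lines were kept in 1.5 µg/mL puromycin, which makes each group a selected population of overexpressing cells, and no group without a delivered p53 gene is analysed here. Only mRNA was measured, so the values say nothing of the amount, position or binding of the proteins.

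Most mitochondrial proteins are encoded in the nucleus, translated in the cytosol and imported, and part of their mRNAs is translated on the outer mitochondrial membrane. RNA-binding proteins hold these mRNAs there, protect them from decay or control their translation: AKAP1 and SYNJ2BP sit in the outer membrane, whereas CLUH and LARP4 work mainly in the cytosol. TUT4 and TUT7 add uridines to the 3′ ends of mRNAs and of miRNA precursors, a tail that marks many RNAs for decay, and ZC3H7B is a zinc finger protein with a known link to miRNA processing.

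No difference between the p53 lines was called for any of these genes. Of the 7 genes, edgeR's quasi-likelihood test called 0 at an adjusted p under 0.05 in G245S against WT, where it called 0.126% of the 15893 genes tested, 0 in R273H against WT, where it called 0.137% of 16022 genes, and 0 in R273H against G245S, where it called 0% of 15614 genes. At an unadjusted p under 0.05 the count was again 0 of 7 in each comparison, beside 6.66%, 6.11% and 4.75% of all genes tested. DESeq2 called 0 of the 7 as well, with 0 at an unadjusted p under 0.05. A count of 0 of 7 stands near these backgrounds and is no result about the genes, so the intervals carry the comparison. All 21 fitted differences, 7 genes in 3 comparisons, had a 95% interval that included 0. The intervals ran from 0.772-fold to 1.32-fold at their widest ends, so the data leave room for changes of that size in single genes.

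The libraries held between 7325514 and 9667306 counts, apart from WT replicate 3 with 1486315. That library was left out of the fits by a rule on depth, because its total was under 4096044 counts, so WT is represented by 2 libraries in every mean ± SD and test below and the value of replicate 3 is given beside the levels of the 7 genes. Its KRT8 and KRT18 mRNA levels also stood apart, at 54.8 CPM against 9.65 to 12.1 CPM and at 161 CPM against 58.8 to 68.8 CPM in the other libraries. Levels are in CPM, counts relative to a library total scaled by the trimmed mean of M-values (TMM), and a floor of 3 counts equalled 0.306 to 0.410 CPM in the 8 fitted libraries and 2.11 CPM in WT replicate 3, below all 7 genes. The 7 markers listed for HEK293 cells were all above the floor in the fitted libraries (LIN28B, an RNA-binding protein of embryonic cells, was at 37.8 to 44.7 CPM), while CD3E, MYH6 and INS, markers of T cells, heart muscle and pancreatic beta cells, were at 0 in all 9 libraries. Of the 8 markers of other cell types only COL1A1 (collagen I, a fibroblast marker) passed the filter, at 12.6 to 36.9 CPM in the 8 fitted libraries. PTPRC ran from 0.204 to 0.957 CPM in the fitted libraries, above the floor in some of them. ALB was at 2.81 CPM in WT replicate 3, above the floor of that library, while HBB and PECAM1 stayed below the floor throughout. Lower mRNA per cell and fewer cells expressing a gene cannot be told apart in these bulk samples.

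**Figure D1:**
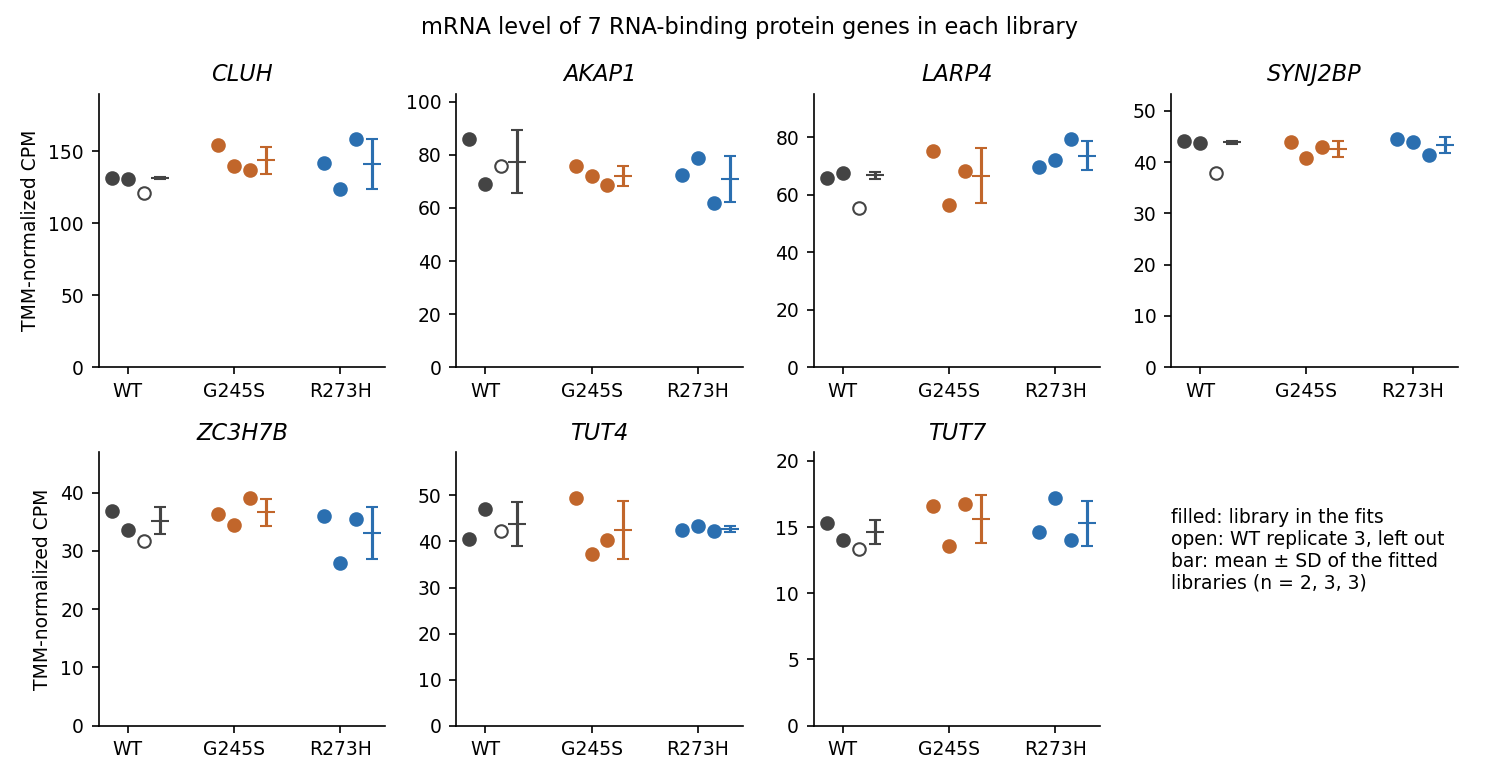
TMM-normalized CPM (y axis, from 0) of each of the 7 genes in each library, by p53 line. Filled points are the 8 fitted libraries, open points are WT replicate 3, and bars give the mean ± SD of the fitted libraries (n = 2 for WT and 3 for each mutant). The ranges of the lines overlap for every gene except CLUH in G245S and LARP4 in R273H against the fitted WT libraries.

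The promoter windows of 3 of the genes are shown first, for the steadiest gene (SYNJ2BP), the gene with the widest range (LARP4) and the gene with the lowest CPM (TUT7). They are RefSeq sequence of GRCh38.p14, the 250 bases before a transcription start, read 5′ to 3′ on the gene's strand. Capitals mark the CCAAT box, bound by the factor NF-Y (CCAAT or its reverse complement ATTGG), and the core CCGGAAG bound by ETS factors or its reverse complement CTTCCGG.

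SYNJ2BP, chr14:70417091-70417340, minus strand: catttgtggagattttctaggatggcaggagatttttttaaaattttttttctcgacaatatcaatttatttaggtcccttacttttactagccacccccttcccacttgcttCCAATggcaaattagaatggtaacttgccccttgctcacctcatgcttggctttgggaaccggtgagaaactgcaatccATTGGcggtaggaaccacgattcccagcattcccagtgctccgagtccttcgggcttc
LARP4, the most upstream of its 3 windows, chr12:50400635-50400884, plus strand: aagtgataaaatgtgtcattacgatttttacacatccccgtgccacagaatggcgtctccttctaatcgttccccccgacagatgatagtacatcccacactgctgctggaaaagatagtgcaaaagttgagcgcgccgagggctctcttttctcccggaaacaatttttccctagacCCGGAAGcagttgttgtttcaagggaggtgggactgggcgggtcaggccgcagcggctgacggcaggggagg
TUT7, chr9:86354411-86354660, minus strand: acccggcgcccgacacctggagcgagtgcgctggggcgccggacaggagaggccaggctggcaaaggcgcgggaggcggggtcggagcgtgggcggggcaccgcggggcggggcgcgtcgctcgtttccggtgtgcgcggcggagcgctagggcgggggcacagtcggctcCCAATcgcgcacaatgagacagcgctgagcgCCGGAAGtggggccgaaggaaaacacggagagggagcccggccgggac

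The SYNJ2BP window holds 2 CCAAT matches and a G+C content of 45.2%, the LARP4 window 1 ETS match and 53.2%, and the TUT7 window 1 match of each kind and 75.2%. The LARP4 window lies inside the span counted for that gene, which starts at 50392383, and the TUT7 window partly overlaps its own. The more downstream LARP4 windows, not shown, hold 2 and 1 CCAAT matches and no ETS match. The table gave 11 windows for 6 of the 7 genes. A CCAAT match stood in 4 of the 11, beside 32.0% of all 35116 promoter windows of that length, an ETS match in 2 of the 11, beside 8.52%, and a match to the 10-base p53 half-site, searched on both strands, in 0 of the 11, beside 5.57%. These are matches of letters and not known binding sites, and they say nothing about p53 or any other factor outside these windows.

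CLUH and AKAP1, the genes for the mRNA-binding proteins best known for mitochondrial mRNAs, were the most abundant of the group per kb of exon. CLUH (ENSG00000132361; GRCh38 chromosome 17, 2689386 to 2712663, minus strand) encodes a cytosolic protein that binds mRNAs of nuclear-encoded mitochondrial proteins and supports their stability and translation. It was at 131 and 131 CPM in WT replicates 1 and 2, at 154, 139 and 137 CPM in G245S and at 141, 124 and 158 CPM in R273H, with 121 CPM in WT replicate 3. Every G245S library was above every WT library, whereas R273H had 1 library below the fitted WT libraries and 2 above them.

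WT averaged 131 ± 0.653 CPM (SD, n = 2), G245S 144 ± 9.23 CPM (SD, n = 3) and R273H 141 ± 17.4 CPM (SD, n = 3). The log2 fold change in G245S was 0.14 (standard error 0.0917, 95% interval −0.057 to 0.34), and edgeR's adjusted p was 0.82. In R273H it was 0.11 (standard error 0.103, 95% interval −0.11 to 0.33), with edgeR's adjusted p = 0.971. This value was 0.020 without R273H replicate 3, 0.20 without R273H replicate 2 and 0.016 with the replicate number as a block in the fit, and the G245S value was 0.079 without G245S replicate 1. CLUH was the only 1 of the 7 genes whose G245S and WT libraries did not overlap, and 22.1% of all genes tested showed such a gap, so the gap is no result about CLUH. Between the mutants CLUH differed by −0.032 on the log2 scale (R273H minus G245S, 95% interval −0.23 to 0.16).

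AKAP1 (ENSG00000121057; chromosome 17, 57085092 to 57121346, plus strand) encodes the A-kinase anchoring protein of the outer mitochondrial membrane, which tethers protein kinase A there and binds mRNAs through its KH and Tudor domains. Its levels were 86.0 and 69.0 CPM in WT, 75.8, 71.9 and 68.6 CPM in G245S and 72.5, 78.7 and 61.8 CPM in R273H, with 75.9 CPM in WT replicate 3. WT replicate 1 was the highest of all libraries, whereas WT replicate 2 was below 4 of the 6 mutant libraries, and the groups overlapped. The WT line averaged 77.5 ± 12.0 CPM (SD, n = 2), G245S 72.1 ± 3.63 CPM (SD, n = 3) and R273H 71.0 ± 8.56 CPM (SD, n = 3).

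On the log2 scale AKAP1 differed from WT by −0.097 in G245S (standard error 0.104, edgeR's adjusted p = 0.917) and by −0.13 in R273H (standard error 0.115, edgeR's adjusted p = 0.97). The 95% intervals were −0.32 to 0.13 and −0.37 to 0.12. The sign of both values rested on 1 library, since without WT replicate 1 they were 0.077 and 0.042 and without WT replicate 2 they were −0.25 and −0.28. A divergent antisense gene, AKAP1-DT, overlaps the start of AKAP1 on the opposite strand, at 1.11 to 2.19 CPM, and strand-specific counting keeps its reads apart. The R273H minus G245S difference of AKAP1 was −0.033 (95% interval −0.23 to 0.16).

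SYNJ2BP, also known as OMP25, encodes a tail-anchored protein of the outer mitochondrial membrane that binds the phosphatase synaptojanin 2 and the endoplasmic reticulum protein RRBP1, and with synaptojanin 2 holds PINK1 mRNA at mitochondria. The gene (ENSG00000213463; chromosome 14, 70366499 to 70417090, minus strand) was the steadiest of the group. It was at 44.0 and 43.7 CPM in WT, at 43.8, 40.7 and 43.0 CPM in G245S and at 44.5, 43.9 and 41.5 CPM in R273H, with 38.0 CPM in WT replicate 3. The groups overlapped, and the 8 fitted libraries spanned only 0.13 on the log2 scale.

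SYNJ2BP averaged 43.8 ± 0.232 CPM in WT (SD, n = 2), 42.5 ± 1.60 CPM in G245S (SD, n = 3) and 43.3 ± 1.59 CPM in R273H (SD, n = 3). The log2 fold change of SYNJ2BP was −0.036 in G245S (95% interval −0.23 to 0.16, edgeR's adjusted p = 0.971) and −0.018 in R273H (95% interval −0.21 to 0.18, edgeR's adjusted p = 0.997). Between the mutants it was 0.017 (95% interval −0.15 to 0.19). These values carry a limit of counting, because SYNJ2BP shares exons on the same strand with the readthrough gene SYNJ2BP-COX16 and its span overlaps that of COX16, and reads on shared exons cannot be given to 1 of them. SYNJ2BP-COX16 was at 63.1 to 74.6 CPM and COX16, which encodes an assembly factor of cytochrome c oxidase, at 70.4 to 83.3 CPM in the fitted libraries. Counted together as 1 gene, an alternative chosen after seeing the data, the 3 genes differed from WT by −0.033 in G245S and 0.0043 in R273H. SYNJ2BP-COX16 and COX16 gave most of that sum, so these values mainly describe those genes and do not check SYNJ2BP alone.

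LARP4 encodes a La-related protein that binds the poly(A) tail and the poly(A)-binding protein PABPC1 and protects mRNAs from deadenylation. LARP4 (ENSG00000161813; chromosome 12, 50392383 to 50480004, plus strand) was at 66.0 and 67.6 CPM in WT, at 75.3, 56.3 and 68.2 CPM in G245S and at 69.6, 72.0 and 79.4 CPM in R273H, with 55.5 CPM in WT replicate 3. Every R273H library was above the fitted WT libraries, while the G245S libraries lay on both sides of them. LARP4 was the only 1 of the 7 genes without overlap between R273H and WT, beside 20.7% of all genes tested.

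LARP4 averaged 66.8 ± 1.15 CPM in WT (SD, n = 2), 66.6 ± 9.60 CPM in G245S (SD, n = 3) and 73.7 ± 5.10 CPM in R273H (SD, n = 3). Its log2 fold change in R273H, 0.14 (standard error 0.0905, 95% interval −0.049 to 0.34), had an unadjusted p of 0.133 and an adjusted p of 0.93 from edgeR, the smallest unadjusted p among the 21 member values. In G245S the change was 0.0085 (standard error 0.113, 95% interval −0.23 to 0.25, edgeR's adjusted p = 0.996). R273H minus G245S was 0.13 (95% interval −0.079 to 0.35, edgeR's adjusted p = 0.994), and here 0 of the 7 genes separated the groups, beside 9.01% of all genes tested. The difference between the mutants was 0.026 without G245S replicate 2 and 0.24 without G245S replicate 1, and the R273H against WT value was 0.087 without R273H replicate 3. The pseudogene LARP4P was at 0.230 to 1.53 CPM in the fitted libraries, and reads that match both copies are shared as fractions.

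ZC3H7B (ENSG00000100403; chromosome 22, 41301525 to 41360147, plus strand) encodes a CCCH zinc finger protein that binds RNA. Its levels were 36.9 and 33.5 CPM in WT, 36.3, 34.5 and 39.1 CPM in G245S and 36.0, 27.9 and 35.4 CPM in R273H, with 31.6 CPM in WT replicate 3. R273H replicate 2 was the lowest fitted library, and the other R273H libraries lay within the range of WT. WT averaged 35.2 ± 2.37 CPM (SD, n = 2), G245S 36.7 ± 2.33 CPM (SD, n = 3) and R273H 33.1 ± 4.51 CPM (SD, n = 3).

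Of the 21 member values, the difference of ZC3H7B between R273H and G245S was the largest in size, at −0.15 on the log2 scale (R273H minus G245S, standard error 0.102, 95% interval −0.37 to 0.066, edgeR's adjusted p = 0.994), and its groups overlapped. Against WT, ZC3H7B differed by 0.064 in G245S (95% interval −0.15 to 0.28, edgeR's adjusted p = 0.949) and by −0.084 in R273H (95% interval −0.34 to 0.17, edgeR's adjusted p = 0.994). Without R273H replicate 2 the latter was 0.020, and the difference between the mutants was −0.048. Without R273H replicate 1 the difference between the mutants was −0.21.

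The paralogous uridylyltransferases TUT4 and TUT7 act on overlapping RNAs, among them let-7 precursors presented by LIN28 proteins. TUT4 (ENSG00000134744; chromosome 1, 52408282 to 52553487, minus strand) was at 40.5 and 47.2 CPM in WT, at 49.5, 37.4 and 40.4 CPM in G245S and at 42.5, 43.5 and 42.2 CPM in R273H, with 42.2 CPM in WT replicate 3. The 3 R273H libraries lay close together and inside the range of both other groups. TUT7 (ENSG00000083223; chromosome 9, 86287733 to 86354454, minus strand) was at 15.3 and 14.0 CPM in WT, at 16.6, 13.5 and 16.7 CPM in G245S and at 14.6, 17.2 and 14.0 CPM in R273H, with 13.4 CPM in WT replicate 3. All TUT7 groups overlapped.

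TUT4 averaged 43.8 ± 4.74 CPM in WT (SD, n = 2), 42.4 ± 6.34 CPM in G245S (SD, n = 3) and 42.7 ± 0.661 CPM in R273H (SD, n = 3). Its log2 fold changes were −0.029 in G245S and −0.032 in R273H (95% intervals −0.29 to 0.23 and −0.24 to 0.17, edgeR's adjusted p = 0.983 and 0.997). TUT7 averaged 14.6 ± 0.904 CPM in WT (SD, n = 2), 15.6 ± 1.82 CPM in G245S (SD, n = 3) and 15.3 ± 1.70 CPM in R273H (SD, n = 3). It differed from WT by 0.10 on the log2 scale in G245S (95% interval −0.20 to 0.40, edgeR's adjusted p = 0.932) and by 0.057 in R273H (95% interval −0.23 to 0.35, edgeR's adjusted p = 0.997), with the widest intervals of the group at 105 to 163 counts per fitted library. Between the mutants the differences were −0.0052 for TUT4 (95% interval −0.22 to 0.21) and −0.049 for TUT7 (95% interval −0.32 to 0.22). The TUT4 count was not a whole number in 8 of the 9 libraries, so part of its reads were shared with other places in the genome. PRPF38A, a splicing factor gene, overlaps the end of TUT4 on the opposite strand.

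**Figure D2:**
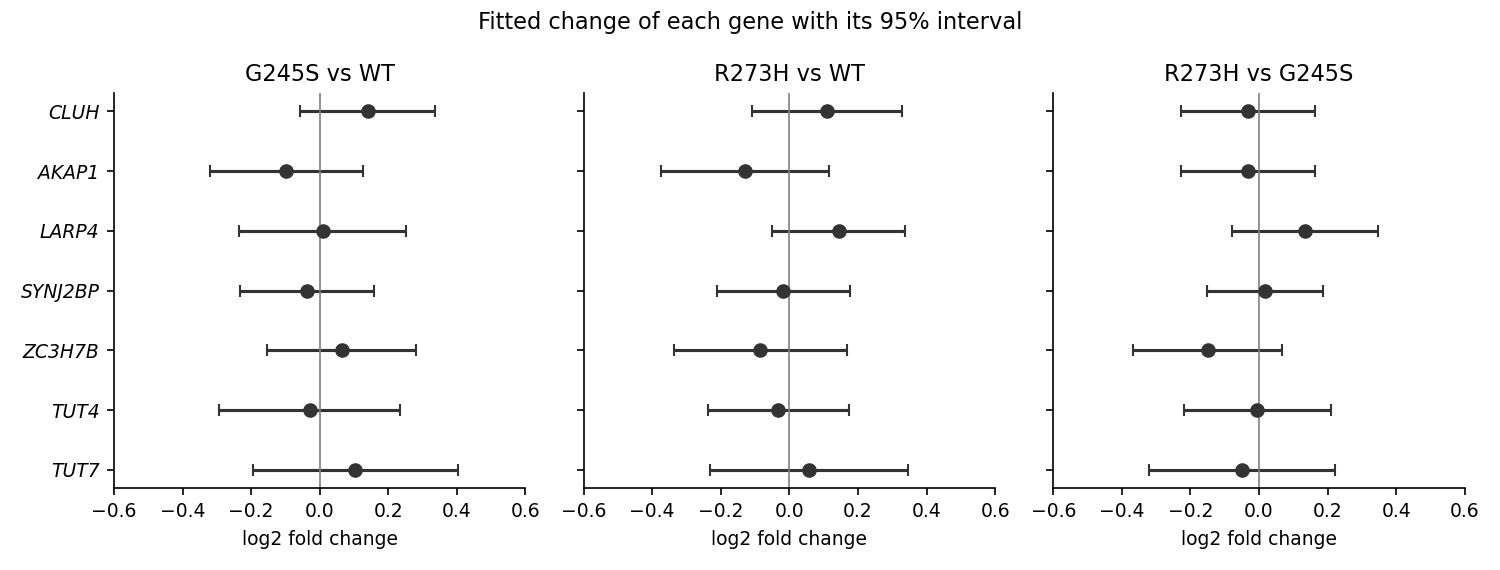
Log2 fold change (x axis) of each gene in G245S against WT, R273H against WT and R273H against G245S, fitted by edgeR over all genes. Points are the estimates and lines the 95% intervals. All 21 intervals include 0.

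Levels were compared between genes per kb of exon, as the mean of the 8 fitted libraries. CLUH was at 20.2 ± 1.71 CPM per kb (SD, n = 8 libraries of 3 lines), AKAP1 at 13.7 ± 1.36, LARP4 at 8.55 ± 0.847, SYNJ2BP at 6.11 ± 0.190, ZC3H7B at 3.32 ± 0.314, TUT4 at 2.65 ± 0.24 and TUT7 at 2.27 ± 0.214 CPM per kb. From CLUH down to ZC3H7B the ranges of neighbouring genes did not overlap, in 8 of 8 libraries, so this part of the order per kb was the same in every p53 line. It rests on the division by length, since in CPM the ranges of AKAP1 (61.8 to 86.0 CPM) and LARP4 (56.3 to 79.4 CPM) overlapped. ZC3H7B against TUT4 and TUT4 against TUT7 kept their order in 7 of 8 libraries each, with overlapping ranges, and these neighbours cannot be ordered per kb. This too depends on length, since in CPM the ranges of TUT4 (37.4 to 49.5 CPM) and TUT7 (13.5 to 17.2 CPM) did not overlap. The mean of TUT4, at 42.9 CPM, was above that of ZC3H7B, at 35.0 CPM, the reverse of their order per kb. The exon length is the one listed for the whole gene, the transcripts present in these cells may be shorter, and whether reads covered whole transcripts or mainly their 3′ ends is not given in the sources used here.

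**Figure D3:**
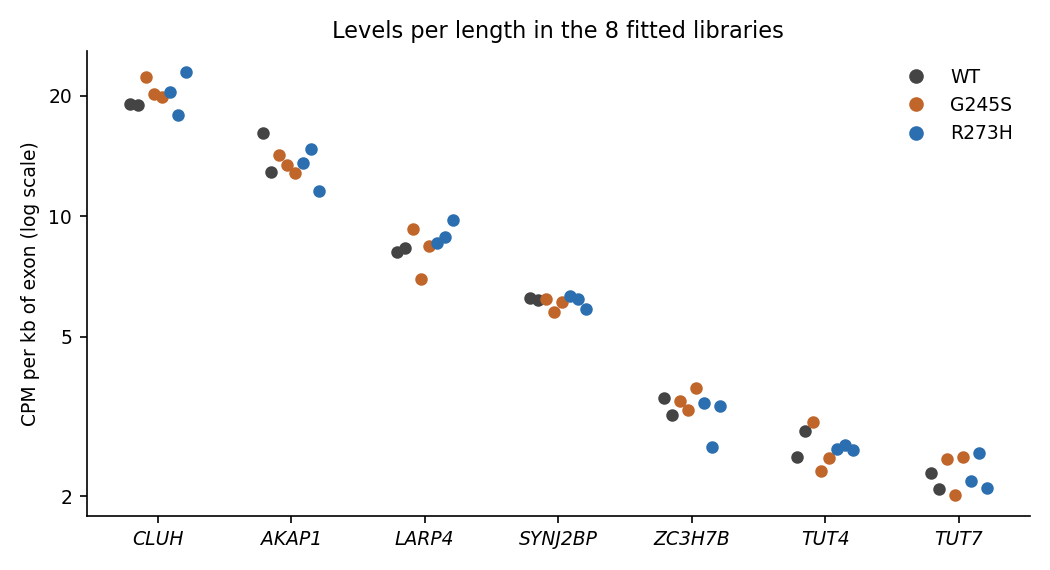
CPM per kb of exon (y axis, log scale) of the 7 genes in the 8 fitted libraries, 1 point per library, coloured by p53 line. CLUH, AKAP1, LARP4 and SYNJ2BP form separate steps from 20.2 to 6.11 CPM per kb, while ZC3H7B, TUT4 and TUT7 run into each other.

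Summed over the 7 genes, the level was 420 and 406 CPM in WT, 451, 394 and 413 CPM in G245S and 421, 407 and 433 CPM in R273H, with 377 CPM in WT replicate 3. The sum overlapped between all lines. G245S replicate 2 was the lowest of the 8 libraries for SYNJ2BP, LARP4, TUT4 and TUT7, and also for the sum.

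The spread between replicates differed among the 7 genes. The SD of log2 CPM within groups was 0.0483 for SYNJ2BP, lower than in all but 4.16% of the 8248 genes at or above the mean level of TUT7, whereas it was 0.127 for CLUH and 0.148 to 0.157 for AKAP1, LARP4, ZC3H7B, TUT4 and TUT7, above the median gene at 0.11. For the mean counts of these genes, counting error alone gives an SD of 0.0422 for CLUH, 0.0585 for AKAP1, 0.0600 for LARP4, 0.0761 for SYNJ2BP, 0.0762 for TUT4, 0.0844 for ZC3H7B and 0.128 for TUT7. The estimated SD of SYNJ2BP was therefore below its counting error, that of TUT7 a little above, and those of CLUH, AKAP1 and LARP4 more than 2 times theirs. Each SD rests on only 8 libraries and is imprecise, and an estimate below counting error can arise from so few. Among the 8 libraries LARP4 had the widest range, 0.49 on the log2 scale, from 56.3 CPM in G245S replicate 2 to 79.4 CPM in R273H replicate 3.

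To compare paralogs without a scaling between libraries, the share of TUT7 in the counts of TUT4 and TUT7 was taken within each library. It was 27.4% (133 of 485 counts, exact 95% binomial interval 23.5% to 31.6%) and 22.9% in WT, 25.1%, 26.6% and 29.3% in G245S and 25.6%, 28.4% and 24.9% in R273H, with 24.1% in WT replicate 3 (19 of 79 counts, 15.1% to 35.0%). All groups overlapped. The mean was 25.2% ± 3.20 (SD, n = 2) in WT, 27.0% ± 2.13 (SD, n = 3) in G245S and 26.3% ± 1.82 (SD, n = 3) in R273H. Two-sided exact permutation tests gave p = 0.5 for G245S against WT and 0.6 for the other comparisons, in a design whose smallest p is 0.1, so that no share could have passed 0.05. The intervals cover counting error only. The shares are of counts and are not corrected for exon length, listed as 6707 bases for TUT7 and 16199 for TUT4.

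LARP4B, the paralog of LARP4, encodes a second cytosolic La-related protein that binds mRNAs. Its share in the counts of LARP4 and LARP4B was 50.8% and 48.5% in WT, 46.9%, 53.6% and 49.5% in G245S and 49.2%, 44.6% and 46.3% in R273H, with 54.1% in WT replicate 3. The groups overlapped here too. These shares are likewise not corrected for exon length, listed as 17029 bases for LARP4B and 8102 for LARP4. Means were 49.6% ± 1.62 (SD, n = 2) in WT, 49.96% ± 3.37 (SD, n = 3) in G245S and 46.7% ± 2.28 (SD, n = 3) in R273H. The R273H mean minus the WT mean was −2.93 percentage points (exact permutation p = 0.3), R273H minus G245S was −3.26 points (exact permutation p = 0.2), and for G245S against WT the exact permutation p was 1. Without G245S replicate 2 the difference between the mutants was −1.46 points, and without WT replicate 1 the R273H against WT difference was −1.78 points.

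**Figure D4:**
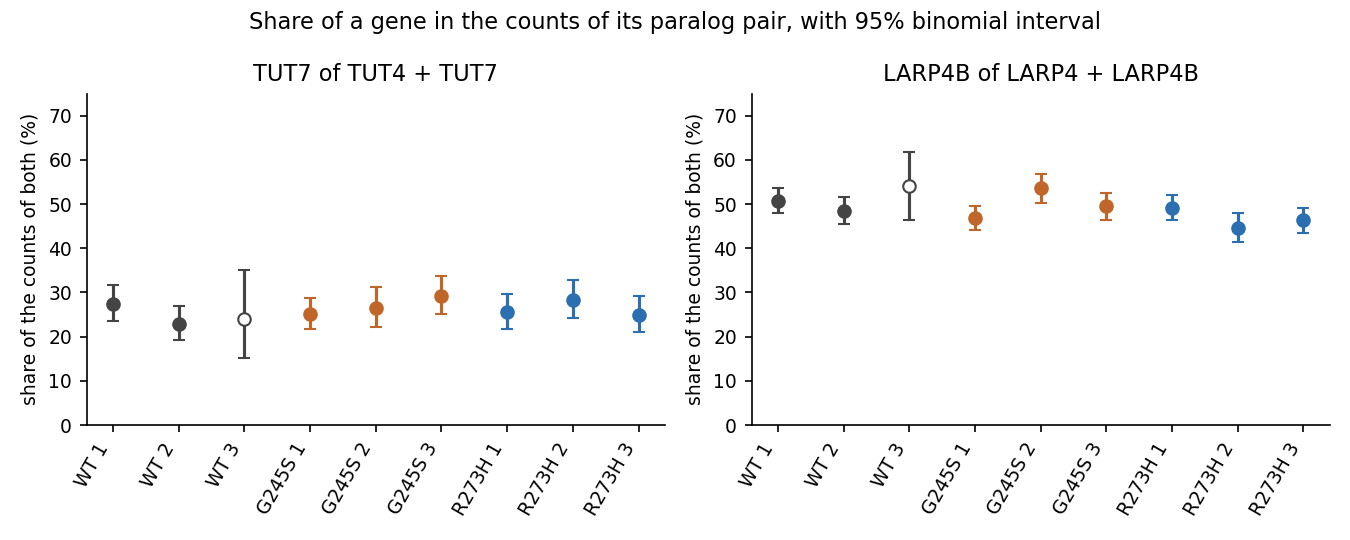
Share (%) of TUT7 in the counts of TUT4 and TUT7 (left) and of LARP4B in the counts of LARP4 and LARP4B (right) in each of the 9 libraries, with exact 95% binomial intervals for counting error; the open point is WT replicate 3. TUT7 holds 22.9% to 29.3% and LARP4B 44.6% to 53.6% in the fitted libraries, and the lines overlap.

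The genes around these proteins were followed in 10 lists of partners, relatives and target mRNAs, 99 genes in all, of which 95 were tested. Of the 95, edgeR called 0 in any comparison at an adjusted p under 0.05. At an unadjusted p under 0.05 there were 2 in G245S against WT, 3 in R273H against WT and 2 in R273H against G245S, or 2.11%, 3.16% and 2.11%, beside the 6.66%, 6.11% and 4.75% of all genes. DESeq2 called 0 of the 95 in each comparison as well. The median log2 fold change of the 95 genes was −0.0016 in G245S and −0.011 in R273H, beside 0.0034 and 0.0023 for all genes tested. The genes named below as having the lowest or highest mean of a list are ranked by the mean of their log2 fold changes in G245S and R273H against WT, given in that order, and need not be the extremes of either comparison.

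Around AKAP1, the 8 genes of protein kinase A subunits and other direct partners had medians of −0.014 in G245S and 0.036 in R273H. Their lowest and highest means belonged to a pair of regulatory subunits of the kinase, PRKAR2B at −0.11 and −0.21 and PRKAR1B at 0.14 and 0.24, neither of which passed the test (edgeR's adjusted p from 0.901 to 0.937). In G245S alone the lowest value was that of DNM1L, the GTPase of mitochondrial fission, at −0.18 (edgeR's adjusted p = 0.768), a gene named after its values were seen. Of the other A-kinase anchoring proteins 11 of 14 were tested, with medians of 0.037 and −0.082. AKAP11, another anchor of the kinase, had the lowest mean and differed from WT by −0.23 in G245S and −0.40 in R273H, the latter with an unadjusted p of 0.0078 and an adjusted p of 0.583 from edgeR. It was at 21.7 and 28.1 CPM in the fitted WT libraries and at 18.0 to 19.8 CPM in R273H, and WT replicate 3, at 19.7 CPM, lay among the R273H libraries. AKAP6 had the highest mean, at 0.085 and 0.080.

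Of the 3 SYNJ2BP partners RRBP1 had the lowest mean, at −0.22 and −0.19 (edgeR's adjusted p = 0.784 and 0.942), and SYNJ2, which encodes synaptojanin 2, had the highest, at 0.0012 and 0.15. The 4 import receptor genes had medians of −0.012 and 0.0060. By mean, TOMM40, the import channel, was lowest at −0.082 and −0.012 and TOMM22, a receptor beside it, was highest at −0.00088 and 0.10.

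Among the 9 La-related proteins and LARP4 partners the medians were −0.055 in G245S and −0.023 in R273H. LARP6, which binds collagen mRNAs, had the lowest mean change, and was at 39.9 and 37.6 CPM in WT, 29.7, 32.6 and 30.5 CPM in G245S and 30.8, 36.5 and 34.7 CPM in R273H. All mutant libraries of LARP6 were below the fitted WT libraries, but WT replicate 3 was lower than any of them, at 28.1 CPM. A gap from the fitted WT libraries was shown by 22.1% of all genes tested in G245S and 20.7% in R273H. The log2 fold change of LARP6 was −0.32 in G245S (standard error 0.0966, unadjusted p = 0.00505, edgeR's adjusted p = 0.527) and −0.19 in R273H (edgeR's adjusted p = 0.891). PABPC4, a poly(A)-binding protein gene, had the highest mean, at 0.089 and 0.021.

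The 14 other ZC3H zinc finger genes had medians of −0.0036 and −0.012. The lowest mean was that of ZC3H15, at −0.15 and −0.10. The highest was that of ZC3H12A, which encodes the RNase regnase-1, at 0.39 and 0.11, the former with a 95% interval of −0.35 to 1.12. The 13 miRNA processing genes, among them DROSHA, DICER1 and the Argonautes, had medians of 0.013 and −0.026. Their lowest mean was that of AGO3, at −0.11 and −0.19, and their highest that of TRIM71, a let-7 target that represses mRNAs, at 0.17 and 0.28 (edgeR's adjusted p = 0.92 and 0.837).

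Of 14 RNA tailing enzymes and partners 13 were tested, with medians of 0.0082 and −0.048. TENT5B, a poly(A) polymerase gene, was at 1.03 and 1.54 CPM in WT, 1.22, 1.16 and 1.11 CPM in G245S and 2.07, 2.19 and 2.26 CPM in R273H, with 1.41 CPM in WT replicate 3, which is under the floor of that library. All R273H libraries were above the others, at a level of few counts. Of all genes tested, 20.7% showed a gap between R273H and WT and 9.01% between the mutants. The log2 fold change of TENT5B in R273H was 0.76 against WT (95% interval 0.018 to 1.51, edgeR's adjusted p = 0.807) and 0.88 against G245S (edgeR's adjusted p = 0.921). DIS3L2, the exonuclease that degrades uridylated RNAs, had the lowest mean, at 0.018 in G245S and −0.24 in R273H. LIN28A, which presents let-7 precursors to TUT4 and was named after its values were seen, was at 1.95 and 2.06 CPM in WT, at 0.985 to 1.80 CPM in G245S and at 1.19 to 4.65 CPM in R273H, with 4.22 CPM in WT replicate 3. Its unadjusted p between the mutants was 0.0174 and its adjusted p from edgeR 0.982.

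The 15 nuclear genes of mitochondrial proteins, the kind of mRNA that CLUH and AKAP1 bind, had medians of −0.017 in G245S and 0.0045 in R273H. SPG7, a protease subunit of the inner membrane, had the highest mean, at 0.26 in G245S (unadjusted p = 0.037, edgeR's adjusted p = 0.725) and 0.10 in R273H. Its WT replicate 3 was at 82.9 CPM, above all other libraries, which lay at 51.8 to 75.9 CPM. NDUFS1, a subunit of complex I, had the lowest mean, at −0.18 and −0.091. HADHB, a fatty acid oxidation enzyme named after its values were seen, was at 0.20 in R273H with an unadjusted p of 0.0414 and an adjusted p of 0.788 from edgeR. Its WT replicate 3 was at 31.6 CPM, below all other libraries, which lay at 48.2 to 59.3 CPM.

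**Figure D5:**
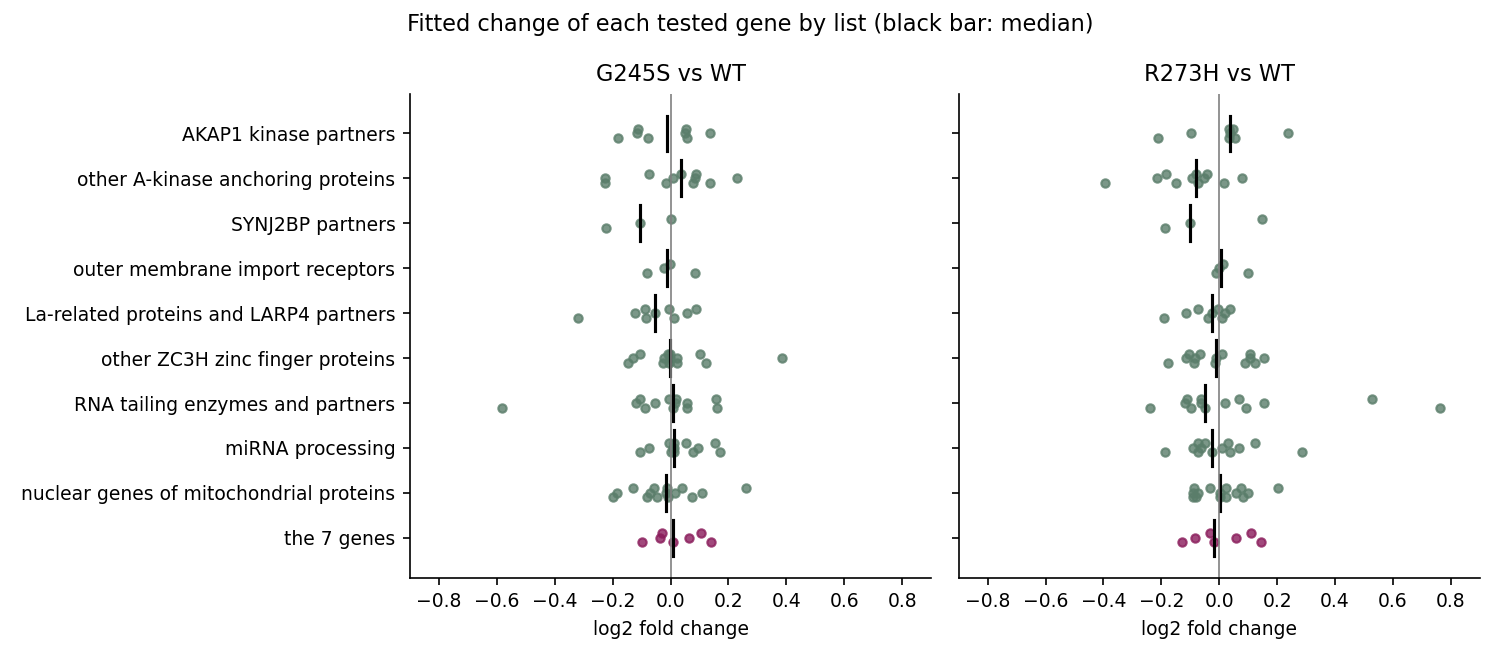
Log2 fold change (x axis) of each tested gene of 9 of the 10 lists and of the 7 genes (bottom row) in G245S and in R273H against WT. Each point is a gene and black bars are medians, which all lie between −0.11 and 0.037. Of the 95 tested genes of all 10 lists, 87 in G245S and 86 in R273H lie within 0.2 of 0.

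For each of the 7 genes, the gene most like it over the 8 fitted libraries was sought among 11029 genes with a mean of at least 5 CPM, as the smallest root mean square difference of centred log2 CPM. These were ARFIP1 for AKAP1 (0.0441), HPS4 for CLUH (0.0326), ZMAT2 for SYNJ2BP (0.0249), RHBDL3 for LARP4 (0.0475), CEP63 for ZC3H7B (0.0405), CYLD for TUT4 (0.0330) and FLVCR1 for TUT7 (0.0271). The median candidate differed by 0.126 to 0.182. The search rests on only 8 libraries, 2 or 3 of each line, and the nearest of 11029 genes is close by choice, so these names are a description only.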

How the data were processed

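RNA-seq libraries of stable HEK293T lines, 3 for each p53 form, were used. Per the study's methods and the submitters' processing notes, the authors trimmed reads with fastp 0.24.0, aligned them to GRCh38 with STAR 2.7.11, removed duplicates by molecular identifier and counted reads per gene with featureCounts (Subread 2.1.1), by strand, sharing multi-mapping reads as fractions. The deposited values are therefore expected counts, not normalized, and 9 CPM columns in the same table were not used. A floor of 3 counts takes account of counting error only, whereas the deduplicated counts also carry the spread between replicates.

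Counts were rounded and tested with edgeR 4.0.16 (R 4.3.3): filterByExpr, TMM, quasi-likelihood F-test, Benjamini-Hochberg adjustment over all genes of a comparison, threshold 0.05. Standard errors and intervals follow from the F statistic. The WT library with the lowest total was left out, as it held under 0.5 times the median of the others. The study left out 1 WT replicate without naming it. The pipeline was tested on simulated data. Nothing in the labels pairs the replicate numbers. Biological replicates are stated, but not how cultures were separated, so p-values measure the spread between these samples.

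The 7 genes, the lists and the tests were chosen with earlier results of these data known, and no list was tested. Besides the 7, the text names the list genes with the highest and lowest mean change, the gene most like each of the 7, and paralogs or overlapping genes. The named genes and medians of 1 list are not reported here. Others are said to have been named after their values were seen. Alternatives were DESeq2 1.42.0, other scalings and filters, the exact test of edgeR, unrounded counts, 1 fit of all groups, a replicate term, other WT libraries and leaving out each library. Coordinates are those of the table, equal to GENCODE for the 7 genes. Figures were drawn with matplotlib 3.10.9.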

Additional observations from a re-analysis of the deposited data

How the results depend on the processing

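Under 22 alternative settings the 7 genes gave 360 values, of which 0 were called by the setting's own test. Of these values 316 kept their sign and 44 turned it, and the largest of the turned values was 0.13 in size. The lowest adjusted p was 0.641 (LARP4, R273H against WT, with WT replicates 2 and 3). An unadjusted p under 0.05 occurred 4 times, each with 1 library left out: AKAP1 in G245S (−0.25) and R273H (−0.28) without WT replicate 2, CLUH in R273H without R273H replicate 2 (0.20) and LARP4 between the mutants without G245S replicate 1 (0.24). Where 1 WT library remained, it was assumed to vary like the mutant libraries. Depth limits TUT7 most, at 105 to 163 counts.

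For G245S against WT, signs turned for LARP4 with the replicate block (−0.021), for SYNJ2BP (0.016) and TUT4 (0.061) with WT replicates 1 and 3, for AKAP1 (0.019) and SYNJ2BP (0.021) with WT replicates 2 and 3, and for SYNJ2BP with the replicate block and all 3 WT libraries (0.0036). For R273H against WT, SYNJ2BP turned with library size scaling (0.0056), with its overlapping genes added (0.0043, an alternative chosen after seeing the data), with the replicate block (0.013), with all 3 WT libraries (0.012, or 0.038 with the replicate block), with WT replicates 1 and 3 (0.033) and with WT replicates 2 and 3 (0.043), TUT4 turned with WT replicates 1 and 3 (0.059) and ZC3H7B with WT replicates 2 and 3 (0.0086). Between the mutants, TUT4 turned with DESeq2 (0.0019), upper-quartile scaling (0.0049), library size scaling (0.019), the stricter filter (0.0019) and 1 fit of all groups (0.0029). The LARP4B share turned in G245S with all 3 WT libraries (−1.15 points). The cause of these turns was not tested.

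Leaving out each library in turn gave, for G245S against WT, −0.25 to 0.077 for AKAP1, −0.098 to 0.12 for LARP4, −0.0052 to 0.14 for ZC3H7B and −0.17 to 0.080 for TUT4. For R273H against WT it gave −0.28 to 0.042 for AKAP1, −0.041 to 0.013 for SYNJ2BP, −0.15 to 0.020 for ZC3H7B, −0.14 to 0.078 for TUT4 and −0.031 to 0.12 for TUT7. Between the mutants it gave −0.11 to 0.060 for AKAP1, −0.12 to 0.052 for CLUH, −0.015 to 0.049 for SYNJ2BP, −0.090 to 0.13 for TUT4 and −0.14 to 0.011 for TUT7. The TUT7 share moved between −0.42 and 4.10 points in G245S, −1.11 and 3.41 in R273H and −1.73 and 0.461 between the mutants, and the LARP4B share between −1.46 and 1.88 in G245S, −4.15 and −1.78 in R273H and −4.81 and −1.46 between the mutants.

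Counts of called genes, 20, 22 and 0 in G245S, R273H and between the mutants, were 144, 93 and 125 with no filter, 73, 61 and 4 with the exact test and 76, 47 and 59 with the replicate block. Correlations of deviations across genes between same-numbered libraries ran from −0.17 to 0.26. Between the mutants they were 0.13, 0.26 and −0.039 for replicates 1, 2 and 3, so R273H replicates 1 and 2 correlated best with the G245S library of their own number and replicate 3 did not, and the numbers were not taken to pair the libraries. The counts of called genes were 74 in G245S and 12 in R273H with the replicate block and all 3 WT libraries. With WT replicates 1 and 3 these counts were 3 and 4. They were 10 in G245S with all 3 WT libraries, 13 in R273H with WT replicates 2 and 3, and 1 between the mutants with DESeq2. Leaving out each library gave 10 to 30, 16 to 29 and 0 to 3, with 13 in G245S without WT replicate 2 and 10 without G245S replicate 3. None of these counts held any of the 7 genes. The replicate block changed no call of a member.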
